A study of Homo sapiens with 4 samples.

Results

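The genes described here are 35 members of glycolysis and of the response to low oxygen, out of 60308 genes counted by RNA-seq. They were taken from a fixed list of symbols: glucose and lactate transporters, glycolytic enzymes, the regulators of phosphofructokinase and pyruvate dehydrogenase, HIF1A with its oxygen sensors, and well-known targets of HIF. All 35 were matched, and 32 had enough reads to be tested. The cells were VCaP, a human prostate cancer cell line with a TMPRSS2-ERG fusion, grown in medium with serum and transfected with either a non-targeting control siRNA (siNTC) or an siRNA against ZBTB7A (siZBTB7A), with no other treatment named. ZBTB7A is a zinc finger repressor that has been reported to hold down SLC2A3, PFKP and PKM, and the comparison asks which genes depend on it.

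Glycolysis splits glucose into pyruvate in the cytosol, and lactate dehydrogenase converts pyruvate and lactate into each other. Prolyl hydroxylases of the EGLN family mark HIF1A for destruction while oxygen is present. When oxygen falls, HIF1A accumulates and raises many glycolytic genes, and pyruvate dehydrogenase kinases then keep pyruvate out of the mitochondria. Prostate cancer cells of the luminal type are known to rely on respiration more than many other tumours do.

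Each group had 2 count tables. Within a group the tables differed by no more than read sampling noise (chi-square per degree of freedom 0.993 for siNTC and 0.995 for siZBTB7A, against 3.50 to 3.64 between groups). They were therefore counted as 1 library per group, so no difference here has a replicate check and every p compares 2 libraries rather than 2 conditions. The labels do not say whether the tables of a group come from separate cultures, so p-values measure only the spread between these tables. The siNTC tables held 5737738 and 5927656 gene reads, and for siZBTB7A the totals were 5556061 and 5745862. Reads outside annotated exons took 20.58% and 20.61% of the siNTC reads and 23.13% and 23.17% of the siZBTB7A reads, and the part of this difference in the results below was not tested. The 6 markers of luminal prostate cells and of the fusion (KLK3, KLK2, HOXB13, FOLH1, SLC45A3, ERG) summed to between 5250 and 5510 CPM per table. The 4 leukocyte markers held 1 and 0 reads in the siNTC and siZBTB7A libraries, the 4 fibroblast markers 23 and 16, and the 3 basal markers 20 and 16. Of 3 endothelial markers, 2 were matched. Of these, 1 had 0 reads and the other held 4 and 9.

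The targeted gene, ZBTB7A, had 90 and 115 reads under siNTC and 70 and 74 under siZBTB7A. Both siZBTB7A tables were below both control tables. The fold, from summed tables with an exact counting interval, was 0.743 (95% interval 0.597 to 0.924), and the gene did not pass edgeR's quasi-likelihood test, with a Benjamini-Hochberg adjusted p of 0.0969. Calls of higher or lower rest on an adjusted p under 0.05 in that test, and CPM are counts scaled to library size after TMM. In bulk RNA, a fall in all cells and a larger fall in some of them cannot be told apart.

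Most of the pathway lay close to the control. Of the 32 members tested, 2 were called higher (LDHB and SLC16A1) and 1 lower (PDK1), which is 9.38% of the members against 4.97% of all 12848 genes tested. By direction this was 6.25% higher against 2.25% of all genes, and 3.12% lower against 2.72%. The members were chosen with earlier results of these data known, so these shares are description only. At an unadjusted p under 0.05 there were 6 members, or 18.8%, against 17.9% of all genes, a share near the background. The tables of the 2 groups did not overlap in 16 members, or 50% of those tested, against 46.8% of all genes. The median fold over the members tested was 0.987, beside 1.001 over all genes. Only PDK3 and ENO2 were past a fold of 1.2, against 20.2% of all genes. None of these shares was matched for read depth, and folds spread more widely in genes with few reads. The folds ran from 0.773 in PDK3 to 1.205 in ENO2, and the counting interval lay wholly within 1.2-fold of the control in 20 of the 32. With 139622 and 132909 reads in all, the members summed to 11870 CPM in the siNTC library and 11950 CPM in the siZBTB7A library, a fold of 1.007 (0.9998 to 1.015).

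**Figure D1:**
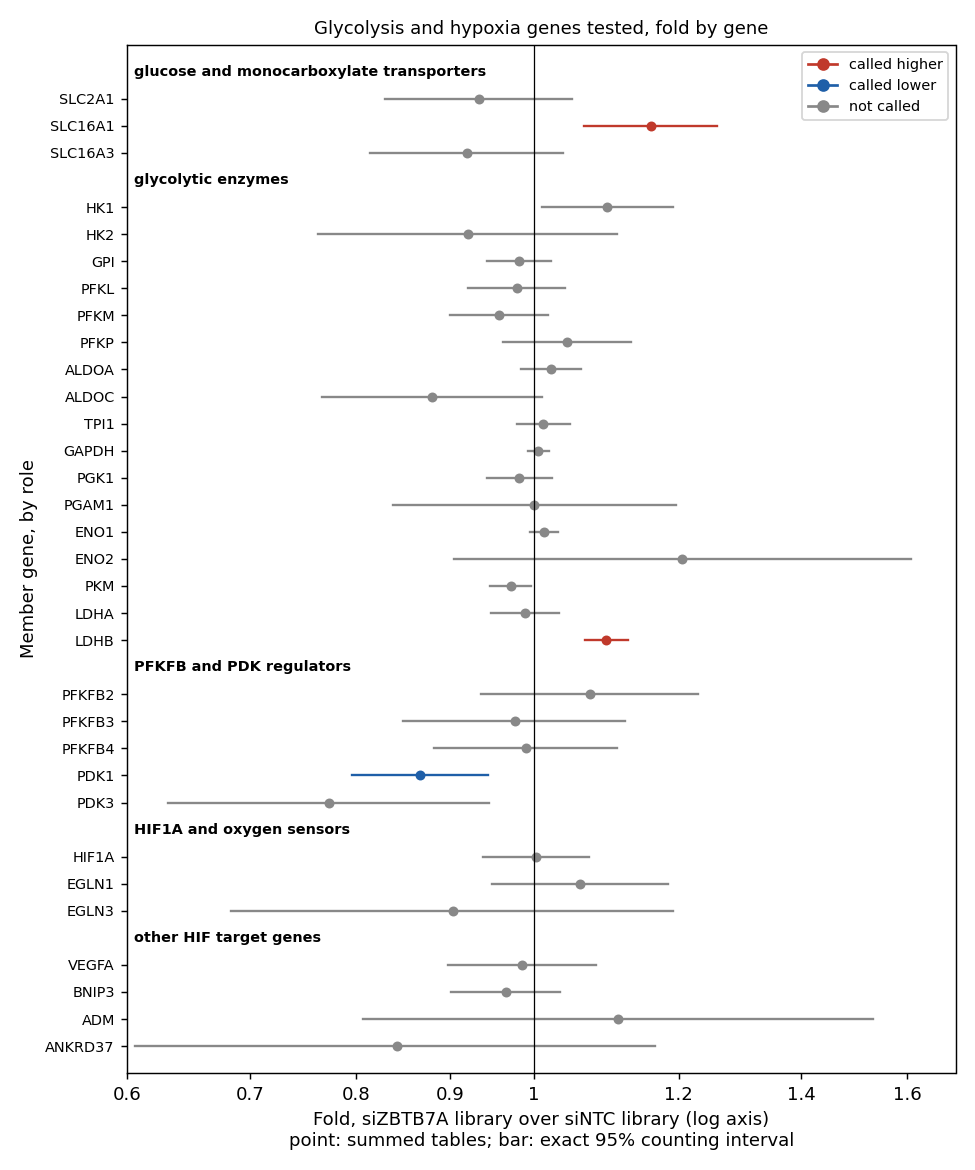
Fold of each of the 32 tested members, siZBTB7A library over siNTC library, on a log axis and grouped by role, with bars for exact 95% counting intervals. LDHB and SLC16A1 (red) lie above 1 and PDK1 (blue) below it, and most glycolytic enzymes sit within a few percent of 1.

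The upstream sequences of some members are shown first, since HIF binds a short core, ACGTG or GCGTG. Whether these sequences bear on any fold or ratio given here was not tested. RefSeq promoter windows on GRCh38.p14 were found for 30 of the 35 members, and the 250 bases before each annotated start were searched on both strands, with overlapping matches counted separately (CACGTG counts as 2). A core was present for 25 of the 30 genes (83.3%) and for 47.4% of the 27305 genes with a window. Members had more windows each, 57 for 30 genes against 35116 for 27305, and counted by window a core was present in 57.9% against 43.2%. The member windows were richer in GC, with a median of 68.4% against 58.0%. Matches to a core of this length are frequent, and they describe the letters only. In the sequences below, written 5′ to 3′ along the gene, capitals mark the core or its reverse complement. LDHA had 5 matches in its first window, and the stretch shown is chr11:18394470-18394499 (plus strand), chosen as the 30 bases with the most matched letters. PDK1 had 0 in its upstream window and 2 in the one before its later start, shown over chr2:172556060-172556089 (plus strand). LDHB had 0 in 250 bases, and its part free of annotated exons is chr12:21657972-21658092 (minus strand). For PGK1, a widely used HIF target, the exon-free part is chrX:78103998-78104173 (plus strand), and for PFKP the window shown is chr10:3068939-3069188 (plus strand), with 1 match. PFKP has 4 annotated windows, and the others held 0, 0 and 3.
LDHA: gactcaCACGTGggttcccgCACGTccgcc
PDK1: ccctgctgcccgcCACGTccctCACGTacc
LDHB: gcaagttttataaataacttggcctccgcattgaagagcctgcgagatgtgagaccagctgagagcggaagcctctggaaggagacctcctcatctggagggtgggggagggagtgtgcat
PGK1: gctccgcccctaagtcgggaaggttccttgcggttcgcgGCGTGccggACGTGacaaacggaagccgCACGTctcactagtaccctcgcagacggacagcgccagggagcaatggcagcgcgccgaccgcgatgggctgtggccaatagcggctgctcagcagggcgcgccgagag
PFKP: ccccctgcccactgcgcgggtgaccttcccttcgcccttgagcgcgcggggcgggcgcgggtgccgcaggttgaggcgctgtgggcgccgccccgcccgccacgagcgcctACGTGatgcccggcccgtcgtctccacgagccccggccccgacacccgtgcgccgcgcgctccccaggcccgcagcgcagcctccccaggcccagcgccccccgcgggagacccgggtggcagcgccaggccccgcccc

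LDHB encodes the H subunit of lactate dehydrogenase, the form of heart and other respiring tissues. Its level was 882 and 889 CPM in the siNTC tables and 963 and 978 CPM in the siZBTB7A tables, so both siZBTB7A tables were above both control tables. From 10422 and 10792 reads the fold was 1.096 (1.067 to 1.126), with an adjusted p of 4.1e-07 in edgeR's quasi-likelihood test. LDHA encodes the M subunit, which is typical of glycolytic tissue and tumours and is a HIF target. It stood at 373 and 384 CPM in the siNTC tables and 370 and 379 CPM in the siZBTB7A tables, which overlapped, with a fold of 0.989 (0.948 to 1.032). The ratio of LDHB to LDHA, tested on the reads of the 2 libraries, was 1.108 times that of the control (exact 95% interval 1.053 to 1.165). Per length of merged exons, the LDHB level was 4.87 times that of LDHA in the siNTC library and 5.398 times in the siZBTB7A library. After the correction for transcript GC content and length LDHB was still called, at a corrected fold of 1.082. With an assumed replicate CV of 10% it was not called.

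The transporters showed a similar contrast between members of a family. SLC16A1 encodes MCT1, a carrier that moves lactate and pyruvate in either direction. It was counted at 90.1 and 91.0 CPM in the siNTC tables and at 108.1 and 101.7 CPM in the siZBTB7A tables, with no overlap. The fold was 1.159 (1.065 to 1.260) and the edgeR adjusted p was 0.0183. The call was lost without siNTC replicate 1, siNTC replicate 2 or siZBTB7A replicate 1, where the log2 fold was 0.21, 0.22 and 0.17. SLC16A3 encodes MCT4, the carrier known for lactate export from glycolytic cells and a HIF target. Its tables read 50.1 and 48.2 CPM in siNTC and 47.6 and 42.8 CPM in siZBTB7A, a fold of 0.919 (0.814 to 1.038) that was not called. The ratio of SLC16A3 to SLC16A1 was 0.793 times that of the control (0.684 to 0.920). SLC2A1, the glucose transporter GLUT1, stood at 53.2 and 50.7 CPM in siNTC and at 47.7 and 49.2 CPM in siZBTB7A, a fold of 0.934 (0.830 to 1.050) with no call.

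**Figure D2:**
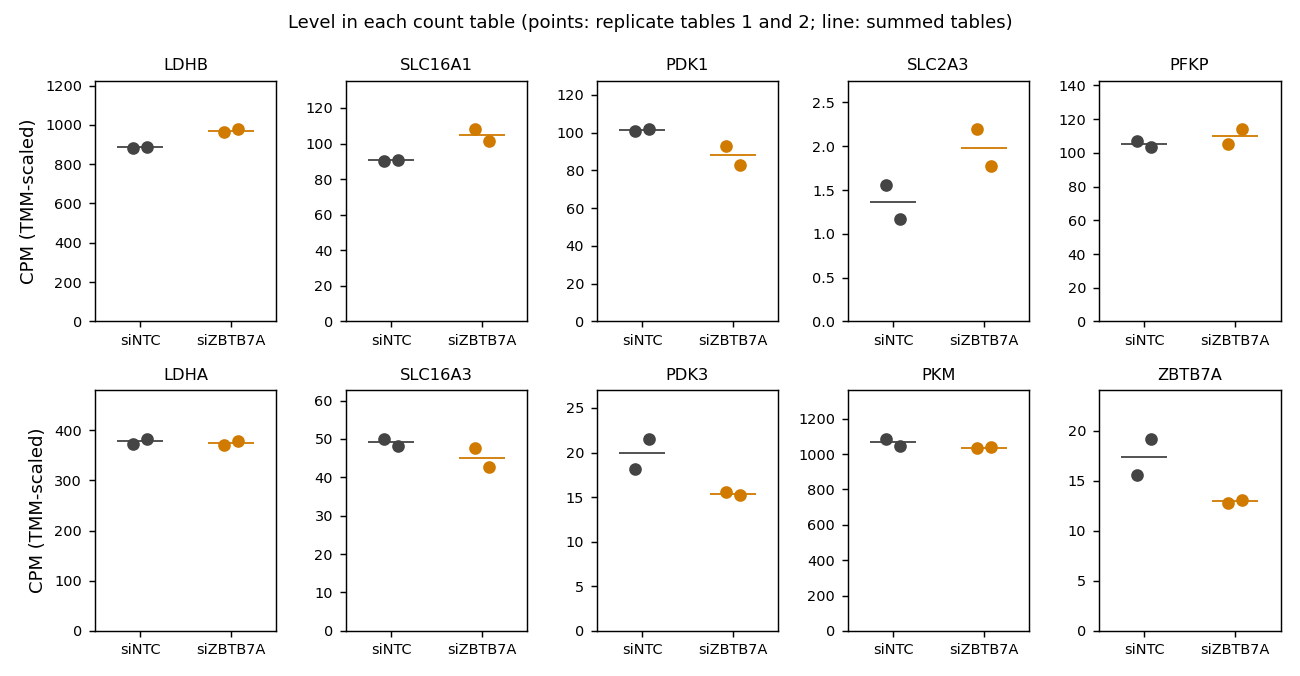
TMM-scaled CPM of 10 genes in each of the 4 count tables, with axes from 0, points for replicates 1 and 2 and a line for the summed tables. The siZBTB7A points of LDHB, SLC16A1 and SLC2A3 lie above all control points, those of SLC2A3 from few reads. Those of PDK1, PDK3, SLC16A3, PKM and ZBTB7A lie below all control points, and those of PFKP and LDHA overlap them. Most steps are small relative to the level. The tables of the 2 groups did not overlap in 46.8% of all genes tested.

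The genes reported as ZBTB7A targets were then read one by one, beside a fold of 0.743 for ZBTB7A itself, which was not called. How these genes would respond to a larger fall of ZBTB7A was not tested. SLC2A3, the high-affinity glucose transporter GLUT3, had 9 and 7 reads under siNTC and 12 and 10 under siZBTB7A. It was too low to pass the filter for the test, and its fold of 1.46 had a counting interval from 0.730 to 2.964. The interval takes in 1, so at this depth changes within these limits could not be told from none. Both siZBTB7A tables were above both control tables, and the tables of the 2 groups did not overlap in 46.8% of all genes tested. PFKP encodes the platelet form of phosphofructokinase, the committed step of glycolysis. It was at 107.3 and 103.3 CPM in siNTC and at 105.3 and 114.1 CPM in siZBTB7A, overlapping, with a fold of 1.043 (0.963 to 1.130). PKM, which encodes pyruvate kinase of muscle and tumours, was at 1088 and 1045 CPM in siNTC and 1033 and 1039 CPM in siZBTB7A. Both siZBTB7A tables of PKM were below both control tables. Its fold of 0.971 (0.947 to 0.996) lay below 1 and was not called (edgeR adjusted p = 0.212). After correction for transcript GC and length, PKM was called lower at a corrected fold of 0.9504. The counts do not separate the splice forms of PKM.

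The remaining enzymes were among the best counted members. GAPDH, at 3919 and 3873 CPM in siNTC and 3906 and 3929 CPM in siZBTB7A, had a fold of 1.006 (0.9926 to 1.019). ENO1, the main enolase, had a fold of 1.013 (0.995 to 1.031) and the aldolase gene ALDOA 1.022 (0.984 to 1.061). The triose phosphate isomerase gene TPI1 was at 1.012 (0.979 to 1.047), the phosphoglycerate kinase gene PGK1 at 0.982 (0.943 to 1.024) and the glucose phosphate isomerase gene GPI at 0.982 (0.944 to 1.022). None of these 6 genes was called, and their intervals together ran from 0.943 to 1.061. With the correction for transcript GC and length, GAPDH was called lower at a corrected fold of 0.969. PFKL and PFKM, the liver and muscle forms of phosphofructokinase, were at 0.979 (0.921 to 1.040) and 0.958 (0.901 to 1.018).

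Of the hexokinases, which trap glucose in the cell, HK1 was at 101.3 and 93.5 CPM in siNTC and at 109.0 and 104.6 CPM in siZBTB7A, with no overlap. Its fold of 1.097 (1.011 to 1.191) was close to that of LDHB in size, from 1145 and 1187 reads, and was not called (edgeR adjusted p = 0.195). HK2, the form raised by HIF, was at 0.921 (0.763 to 1.110). ALDOC, the brain aldolase, had 0.880 (0.767 to 1.010), and ENO2, the neuronal enolase, 1.205 (0.905 to 1.607) from 94 and 107 reads. PGAM1, a phosphoglycerate mutase, was at 1.001 (0.838 to 1.196) from 261 and 247 reads. Of the 17 enzyme genes, 1 was called, or 5.88% against 4.97% of all genes, a share near the background, and 14 had an interval within 1.2-fold of the control.

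Within families, 9 pairs of genes were compared by the ratio of their reads, and the interval of the change excluded 1 in 3 of them, with no adjustment over the pairs. LDHB to LDHA and SLC16A3 to SLC16A1 are given above, and the ratio of ALDOC to ALDOA was 0.861 times that of the control (0.747 to 0.993). The ALDOC interval took in 1 without siNTC replicate 1 or siZBTB7A replicate 2 (log2 -0.09 and -0.12) and with unstranded counts. For HK2 to HK1 the value was 0.839 (0.683 to 1.030), for PFKP to PFKL 1.066 (0.963 to 1.179), for PFKM to PFKL 0.978 (0.897 to 1.067) and for ENO2 to ENO1 1.190 (0.893 to 1.587). PDK3 to PDK1 was at 0.892 (0.715 to 1.111) and SLC2A3 to SLC2A1 at 1.558 (0.773 to 3.209). Without siNTC replicate 1 the interval of HK2 to HK1 also excluded 1 (log2 -0.45).

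**Figure D3:**
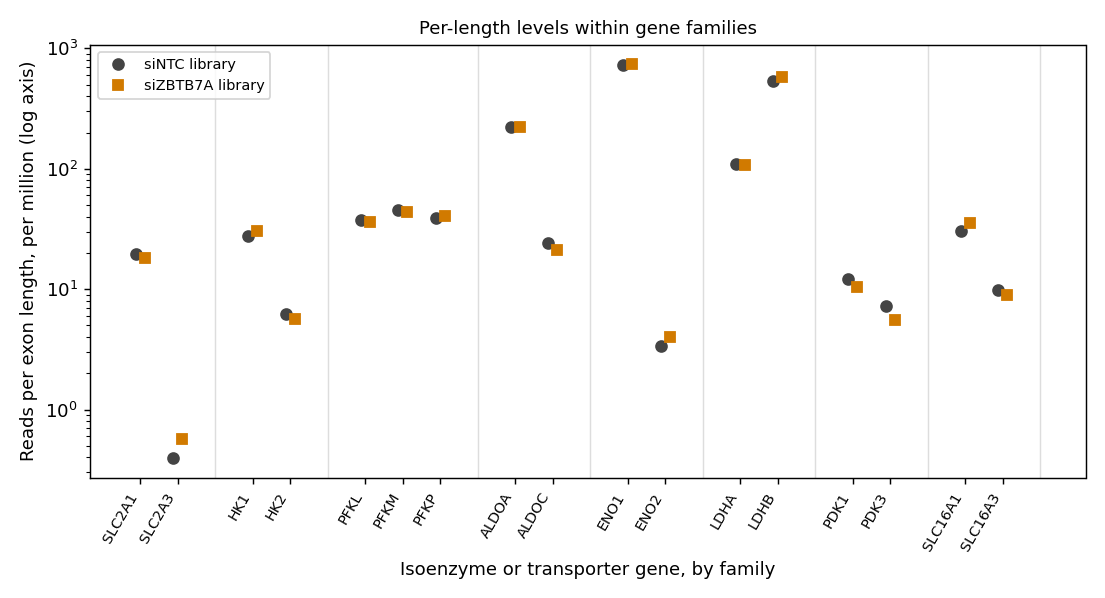
Level per length of merged exons (TPM) in the siNTC (grey circles) and siZBTB7A (orange squares) libraries, on a log axis, for 8 gene families. ENO1, LDHB and ALDOA dominated their families in both libraries, the 3 phosphofructokinases were at similar levels, and SLC2A3 was far below SLC2A1.

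Levels of different genes were compared per length of merged exons, as TPM. GAPDH led at 2344 TPM in siNTC and 2339 in siZBTB7A, followed by ENO1 at 734 and 737, LDHB at 533 and 579, TPI1 at 405 and 407, PKM at 223 and 215, ALDOA at 221 and 224, PGK1 at 131 and 128 and LDHA at 109 and 107. PKM and ALDOA changed places between the libraries. The phosphofructokinase genes stood close together, with PFKM at 45.7 and 43.4, PFKP at 39.1 and 40.4 and PFKL at 37.3 and 36.2 TPM. PGAM1 was at 15.5 and 15.4 TPM. It is 1 of 16 members with annotated pseudogene copies, 147 in all, and reads that map to several places were not counted. The 13 PGAM1 copies held 29 and 41 reads of their own, the 62 GAPDH copies 194 and 167, and the levels of such genes are uncertain. Merged exons also include parts that VCaP may not use, so levels between genes are approximate.

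Of the 5 regulators of the pathway, 1 was called lower, beside 2.72% of all genes, and 4 had a fold below 1, beside 6403 of all 12848 genes. PDK1 encodes a kinase that switches off pyruvate dehydrogenase and is a HIF target. It was at 100.8 and 101.8 CPM in siNTC and at 92.9 and 83.0 CPM in siZBTB7A, both below the control tables. The fold was 0.867 (0.796 to 0.945) and the edgeR adjusted p was 0.0304. The call was lost without siNTC replicate 1, siNTC replicate 2 or siZBTB7A replicate 2, at log2 folds of -0.21, -0.20 and -0.13. The longest annotated transcript of PDK1, used for the correction, is long and GC-poor (14193 bases, 39.8% GC). Genes called lower were of that kind, with medians of 7151 bases and 41.6% GC against 3628 bases and 48.0% over all genes tested. Genes called higher lay on the other side, with medians of 2926 bases and 54.2% GC. With the correction for these properties the fold of PDK1 was 0.9497 and it was not called.

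PDK3, a second kinase of this family and also raised by HIF, was at 18.2 and 21.6 CPM in siNTC and at 15.6 and 15.2 CPM in siZBTB7A, with no overlap. Its fold of 0.773 (0.631 to 0.946) was farther from 1 than that of PDK1. From 234 and 171 reads it was not called (edgeR adjusted p = 0.129). The PFKFB enzymes set fructose 2,6-bisphosphate, which activates phosphofructokinase. PFKFB2 was at 1.073 (0.936 to 1.230), PFKFB3 at 0.976 (0.849 to 1.122) and PFKFB4 at 0.990 (0.883 to 1.110), none of them called. Summed over these 5 genes, the fold was 0.932 (0.884 to 0.983), and PDK1 held 1192 of the 2895 siNTC reads and 977 of the 2550 siZBTB7A reads. The same sum was 1.009 (1.001 to 1.017) for the glycolytic enzymes, from 10970 CPM in siNTC and 11070 CPM in siZBTB7A. Within it, LDHB alone went from 885.7 to 970.6 CPM. For the transporters the sum was 1.039 (0.980 to 1.102), for HIF1A and the sensors 1.013 (0.958 to 1.071) and for the other HIF targets 0.973 (0.922 to 1.026).

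**Figure D4:**
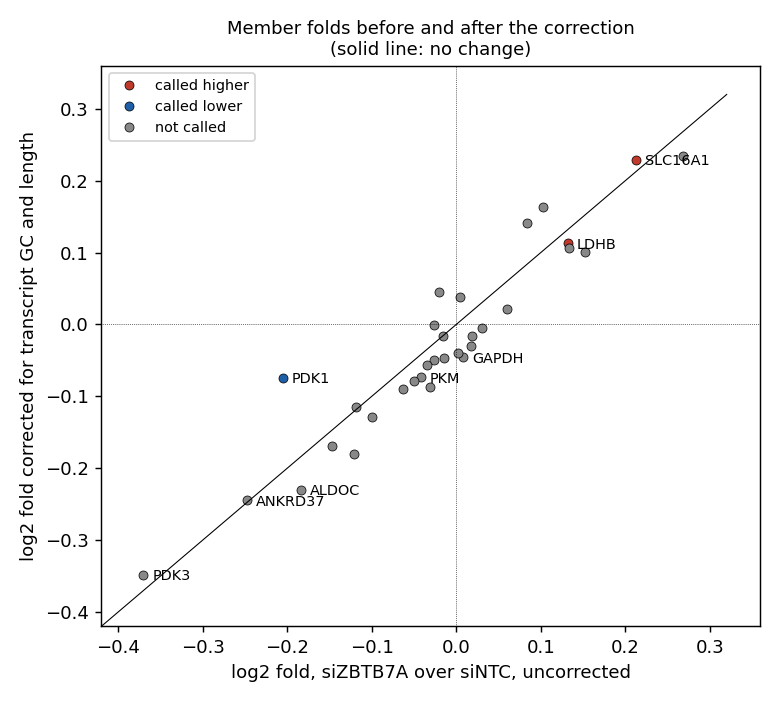
log2 fold of the 32 tested members before (x axis) and after (y axis) the correction for transcript GC content and length, with the solid line for no change. PDK1 moved from -0.21 to -0.07 and lies farthest above the line, while LDHB and SLC16A1 stayed near it and GAPDH moved from 0.01 to -0.05.

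HIF1A itself read 154.0 and 153.6 CPM in siNTC and 154.2 and 154.5 CPM in siZBTB7A, and the tables lay within 1 CPM of each other. Its fold was 1.003 (0.939 to 1.072); the abundance of its protein, by which oxygen acts, is not seen in RNA. The oxygen sensor EGLN1 had a fold of 1.060 (0.949 to 1.184). EGLN3, a sensor that is itself a HIF target, had 0.903 (0.684 to 1.191) from 116 and 99 reads. None of these 3 genes was called.

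The other HIF targets of the list were not called either. VEGFA, the vascular growth factor, was at 79.7 and 81.4 CPM in siNTC and at 81.6 and 77.3 CPM in siZBTB7A, overlapping, with a fold of 0.986 (0.898 to 1.081). BNIP3, a mitophagy receptor, was at 0.966 (0.902 to 1.034). ADM, which encodes adrenomedullin, was at 1.112 (0.807 to 1.533) from 79 and 83 reads, and ANKRD37 at 0.842 (0.606 to 1.165) from 88 and 70 reads. CA9, a carbonic anhydrase that is nearly silent in well-oxygenated cells, had 1 read in the siNTC library and 0 in the siZBTB7A library, which allows up to 3 reads. BNIP3L, the close relative of BNIP3, had 1 read in the siNTC library and 3 in the siZBTB7A library, against 1736 and 1584 for BNIP3. Per length this was 0.0354 and 0.112 TPM for BNIP3L and 49.7 and 47.6 for BNIP3. Whether the counting left out reads of BNIP3L could not be settled from the tables, so its level beside that of BNIP3 is uncertain. For CA9 and BNIP3L no fold is given.

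**Figure D5:**
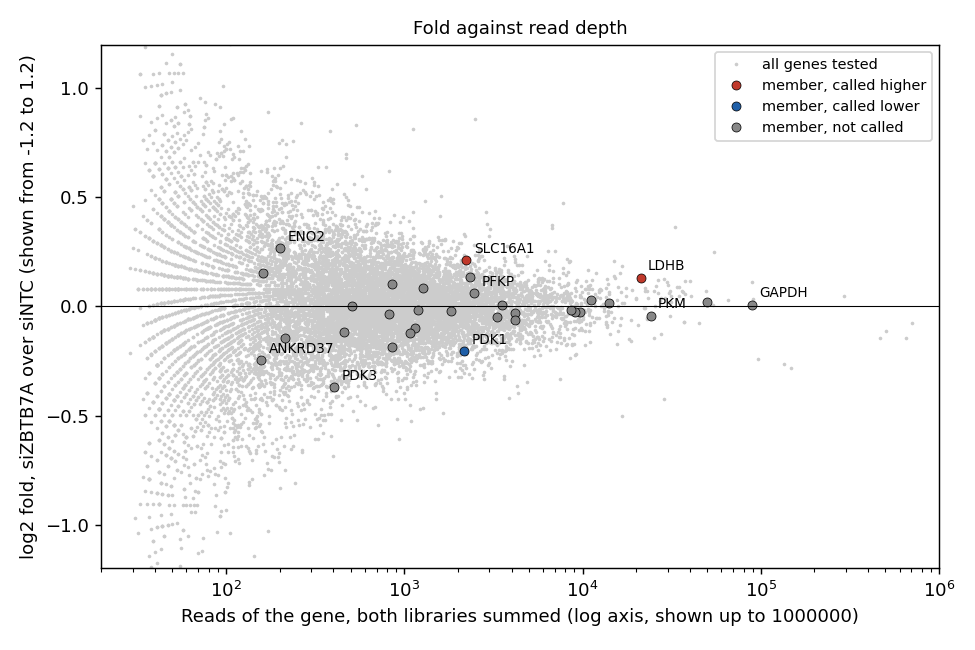
log2 fold against the reads of a gene in both libraries (log axis), for all genes tested (light grey) and the 32 members. At the depth of LDHB and GAPDH the cloud is narrow, and LDHB stands above it, while PDK3, ENO2 and ANKRD37 lie in the wide part with few reads.

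Further genes of the pathway were read from 6 lists with 101 genes in all, of which 85 were tested. The lists were chosen with earlier results of these data known, so the shares called in them are description only. None (0) was called higher and 7 were called lower, which is 8.24% against 2.72% of all genes called lower, and 20 of the 85 had an unadjusted p under 0.05, or 23.5% against 17.9% of all genes. With unstranded counts 2 of these genes were called higher and 6 lower. Of these lists, 3 had no call by edgeR: pyruvate entry into mitochondria (0 of 12, 3 at an unadjusted p under 0.05), the pentose phosphate pathway (0 of 9, and 0 unadjusted) and glycogen and hexosamine genes (0 of 12, and 0 unadjusted). DESeq2, which gave no adjusted p for 11707 of all genes, called 0 of the 85. Among 12 further glycolytic isoenzymes and sugar transporters, 1 was lower, or 8.33% against 2.72% of all genes. This was SLC2A10, a sugar transporter, at 0.485 (0.311 to 0.742). It had 34 and 38 reads in siNTC and 9 and 24 in siZBTB7A. Without siZBTB7A replicate 1 its log2 fold was -0.53, and without siNTC replicate 2 it was -0.98, in both cases with no call, and without siZBTB7A replicate 2 it was -1.88 and called.

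Among 13 HIF subunits and parts of the oxygen-sensing machinery, 1 was lower, or 7.69% against 2.72% of all genes. This was HIF1AN, which encodes the asparagine hydroxylase FIH, an inhibitor of HIF. It read 27.1 and 29.3 CPM in siNTC and 19.9 and 21.8 CPM in siZBTB7A, a fold of 0.740 (0.623 to 0.877), with both siZBTB7A tables below both controls. Its call was lost without siNTC replicate 2, siZBTB7A replicate 1 or siZBTB7A replicate 2, at log2 folds of -0.38, -0.37 and -0.50, and after correction for transcript GC and length, at 0.789.

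Of 27 further HIF target genes, 5 were lower and 0 higher, or 18.5% against 2.72% of all genes called lower, and 20 of the 27 had a fold below 1, beside 6403 of all 12848 genes. This list too was chosen with earlier results of these data known, so its shares are description only. The median fold of the list was 0.961, beside 1.001 over all genes. NDRG1, a gene that androgen also induces, was at 1665 and 1657 CPM in siNTC and at 1588 and 1576 CPM in siZBTB7A, a fold of 0.952 (0.933 to 0.972). DDIT4, an inhibitor of mTORC1, was at 81.9 and 72.6 CPM in siNTC and at 63.8 and 64.8 CPM in siZBTB7A, a fold of 0.833 (0.755 to 0.920). KDM3A, a histone demethylase, was at 0.812 (0.711 to 0.926). The oxidase gene ERO1A was at 0.815 (0.724 to 0.917), and WSB1, which encodes a ubiquitin ligase subunit, at 0.880 (0.812 to 0.954). DDIT4 and ERO1A are known to respond to stress of the endoplasmic reticulum as well as to HIF. After that correction 2 of the 5 were called, NDRG1 at 0.935 and DDIT4 at 0.804, while KDM3A, ERO1A and WSB1 stood at 0.861, 0.843 and 0.903. Without siNTC replicate 1, siNTC replicate 2, siZBTB7A replicate 1 and siZBTB7A replicate 2 the list had 3, 2, 2 and 0 calls.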

How the data were processed

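RNA from VCaP cells was sequenced with a stranded total RNA kit, per the labels' protocols. The deposited tables hold raw read counts per gene made by the authors, with no normalization. The submitters' processing notes list STAR 2.4.2a and the build names hg19 and GRCh37; which annotation was counted is not stated there. Reads mapping to several places or to several genes are outside the gene counts. The strand with 24.9 to 25.5 times the reads of the other was used. Rows that name no gene held 50.8% to 51.2% of reads and were left out.

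Symbols, exon lengths, pseudogenes and transcript GC content came from GENCODE 29 by Ensembl number, which named 55698 of 60308 identifiers. Transcript GC content and length were those of the longest annotated transcript of each gene, which VCaP may not use. The spline correction described below was fitted to the folds of these same data. Counts were tested with edgeR 4.0.16 in R 4.3.3 (robust quasi-likelihood fit, TMM, filterByExpr, group as the only term, Benjamini-Hochberg over 12848 genes). Folds are of summed tables, with exact (Clopper-Pearson) 95% intervals for counting error only; reads without molecular identifiers are not independent molecules. Ratios of 2 genes used the conditional odds ratio. The test was checked on simulated data with counting noise only, so the check does not cover variation between libraries. Alternatives used DESeq2 1.42.0, limma 3.58.1, other filters, scalings and strands, a replicate block, single tables left out, an assumed replicate CV of 10% and a spline correction for GC content and length. A binomial test (exact) of summed reads and the alternatives for the ratios were added after the data were seen. Members, lists and tests were chosen with earlier results of these data known. All members are named, with full values for those called, the reported targets, HIF1A, LDHA, VEGFA and CA9; of other genes only those called.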

Additional observations from a re-analysis of the deposited data

How the results depend on the processing

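Of the 639 genes called (289 higher, 350 lower), DESeq2 called 85 and gave no adjusted p for 11707 genes, the correction for GC content and length 354, and an assumed replicate CV of 10% left 1. Among the members the count of 3 became 1 with DESeq2 (LDHB) and 0 with that CV, at which every gene listed here lost its call. In the DESeq2 counts a gene with no adjusted p, such as SLC16A1, was taken as not called. The count over the other lists, 7, became 0 with DESeq2, 3 with the correction and 0 with that CV; that of the further HIF targets, 5, became 0, 2 and 0, and 3 with no filter on low counts. Leaving out 1 table at a time gave 301 to 385 calls among all genes, 1 to 2 among the members, 1 to 6 in the other lists and 0 to 3 among the further HIF targets, with fewer tables in the fit. The replicate numbers did not pair the samples (deviations correlated at -0.015 over 5461 genes), and the replicate block called 654 genes and 3 members, and changed no other count given here by over 1.5 times. Limma-voom, DESeq2 size factors, a filter at 1 CPM, protein-coding genes only and the binomial test kept the same 3 members. PDK1 was not called with no filter (log2 fold -0.20) or with unstranded counts (-0.19). The median log2 fold over the members, -0.018, was -0.043 with the correction and ran from -0.031 to 0.0089 without 1 table. Directions that turned were all of uncalled genes or ratios, except that GAPDH became called. As log2 folds, the correction gave ALDOA -0.0054, TPI1 -0.031, GAPDH -0.046, PGAM1 -0.040, ENO1 -0.017 and VEGFA 0.045, and PGAM1 was -0.0066 with unstranded counts and -0.0003 with protein-coding genes only. Without 1 table, the log2 fold ran from -0.26 to 0.044 in HK2, -0.054 to 0.0014 in GPI, -0.016 to 0.074 in ALDOA, -0.011 to 0.046 in TPI1, -0.0005 to 0.017 in GAPDH, -0.060 to 0.065 in PGAM1, -0.036 to 0.0051 in LDHA, -0.24 to 0.15 in PFKFB3, -0.12 to 0.087 in PFKFB4, -0.38 to 0.12 in EGLN3, -0.060 to 0.017 in VEGFA, -0.076 to 0.36 in ADM and -0.48 to 0.025 in ANKRD37, and the log2 ratio of PFKM to PFKL from -0.079 to 0.013. The cause of these shifts was not tested. SLC2A3, CA9 and BNIP3L had too few reads to pass the filter on low counts, so the results above hold no test of them. With no filter all 35 members were tested, and the 2 called, both higher, were among the 3 called above. SLC2A3, CA9 and BNIP3L were not called there.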
